A study of Mus musculus with 32 samples.

Results

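Tead1, Tead2, Tead3 and Tead4 encode the TEAD transcription factors, and Yap1 and Wwtr1 encode their coactivators YAP and TAZ. Open chromatin near these 6 genes was followed by ATAC-seq, which marks accessible DNA by where a transposase inserts adapters, in mouse fibroblasts on their way to pluripotent cells. A site was the union of overlapping peaks of the 15 peak lists, and it was taken as near a gene when a peak of it had its centre in the gene body or within 50 kb of it on GRCm38. By this rule 242 of 276187 sites were near the 6 genes: 88 near Tead1, 21 near Tead2, 22 near Tead3, 30 near Tead4, 37 near Yap1 and 44 near Wwtr1. Of these, 137 had their place in a gene body and 105 in a flank, and 13 lay within 1 kb of an end of another gene.

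In the Hippo pathway the kinases Stk3 and Stk4, with their partner Sav1, activate Lats1 and Lats2, which phosphorylate YAP and TAZ and keep them out of the nucleus. When the kinases are inactive, YAP and TAZ enter the nucleus, where they do not bind DNA themselves but are carried to enhancers by TEAD factors. In fibroblasts YAP and TAZ respond to cell shape, stiffness and density, and Ccn1, Ccn2 and Ankrd1 are the usual readouts of their activity.

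The cells were mouse embryonic fibroblasts (OG2-MEFs, whose GFP reporter reads Pou5f1) given Oct4, Sox2, Klf4 and c-Myc, and the 32 samples fell into 15 groups with 1 deposited peak list each. Cells with control shRNA (shLuci) or CTCF shRNA (shCTCF) were taken unsorted at day 0, as Thy1+ cells of days 3, 6 and 9, as SSEA1-Thy1- and SSEA1+ cells of days 6 and 9, and as GFP+ cells of day 12. These 10 groups belong to the doxycycline-inducible lentiviral system. At day 10 reprogramming cells carried a control vector (oeControl), CTCF from a retrovirus (oeCTCF), or CTCF with Smarca5 shRNA (oeCTCF_shSmarca5), and at day 12 they carried control or Smarca5 shRNA (shSmarca5). CTCF is the zinc finger protein at insulators and domain borders, and Smarca5 is the ATPase of ISWI chromatin remodellers. Each Thy1+ list stands for 3 samples and each other list for 2, and the lists of the 3 intermediate populations pool samples of different days. With 1 list a group there was no replicate check, no p-value could be computed, and all values below are descriptions. The 95% intervals given are those of Clopper and Pearson (exact), and they hold only the counting error over sites. In such bulk lists a site open in fewer cells and a site less open in every cell cannot be told apart, and no measure of Ctcf or Smarca5 RNA was used here.

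The lists held from 43618 to 213386 peaks after merging, and the depth behind them is unknown. Peak positions coincided within 3 sets (day 0 with the sorted cells, day 10, day 12), at 44.0% to 95.6% of the shorter list, and hardly between sets, at 0.664% to 0.887%. Lists were therefore compared within a set. Only counts of presence over all 15 lists cross the sets, and the shortest lists, those of day 12, limit such counts. The labels of the populations were checked by the number of peaks near marker genes. In the control lists of day 0, Thy1+, SSEA1-Thy1-, SSEA1+ and GFP+ cells, the 8 fibroblast markers had 123, 140, 97, 70 and 40 peaks in all, the 8 pluripotency markers 67, 98, 92, 102 and 115, and the 6 epithelial markers 76, 120, 115, 117 and 118. Of the fibroblast markers only Fap had no peak in the GFP+ control list, and only Postn had none in the 3 day 10 lists.

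All 6 genes had a peak within 1 kb of the transcription start in all 15 lists (for Tead1 and Tead4, within 1 kb of an end of the gene). The share of all genes with such a peak is not given here, so this is not shown to be particular to the 6. The 250 bases before the start of the 4 genes with an entry in the RefSeq promoter table (GRCm38.p6) are shown because a peak covered this stretch in all 15 lists for Tead3, Yap1 and Wwtr1, and in 0 lists for Tead2. Capitals mark GGAATG, the core letters of the TEAD motif, and GGGCGG, those of the KLF and SP motif, on either strand. The stretches lie at chr7:45215542-45215791 (plus strand, Tead2), chr17:28350806-28351055 (minus strand, Tead3), chr9:8004597-8004846 (minus strand, Yap1) and chr3:57575911-57576160 (minus strand, Wwtr1).
Tead2: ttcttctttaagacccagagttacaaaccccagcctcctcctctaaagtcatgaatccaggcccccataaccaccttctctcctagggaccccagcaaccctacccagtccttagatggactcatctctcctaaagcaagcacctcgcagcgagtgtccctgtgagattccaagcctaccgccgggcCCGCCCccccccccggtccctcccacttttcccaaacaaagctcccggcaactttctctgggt
Tead3: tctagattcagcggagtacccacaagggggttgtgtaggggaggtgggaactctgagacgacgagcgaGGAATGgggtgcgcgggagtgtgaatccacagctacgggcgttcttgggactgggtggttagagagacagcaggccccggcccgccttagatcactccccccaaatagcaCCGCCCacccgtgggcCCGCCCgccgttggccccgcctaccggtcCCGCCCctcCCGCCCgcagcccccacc
Yap1: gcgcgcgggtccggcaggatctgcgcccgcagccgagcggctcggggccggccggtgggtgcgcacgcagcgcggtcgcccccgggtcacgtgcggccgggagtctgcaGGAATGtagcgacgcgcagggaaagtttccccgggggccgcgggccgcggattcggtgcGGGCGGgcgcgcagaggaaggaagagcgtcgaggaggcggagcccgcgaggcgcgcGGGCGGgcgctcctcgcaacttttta
Wwtr1: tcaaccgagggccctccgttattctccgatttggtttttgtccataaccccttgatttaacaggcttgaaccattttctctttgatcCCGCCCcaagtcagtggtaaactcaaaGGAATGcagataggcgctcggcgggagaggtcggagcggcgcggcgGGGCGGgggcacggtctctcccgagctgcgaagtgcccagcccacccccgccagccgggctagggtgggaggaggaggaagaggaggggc
GGAATG occurred 1 time in each of the stretches of Tead3, Yap1 and Wwtr1 and in 12.6% of all 27025 promoters of that length. GGGCGG occurred 1 time before Tead2, 4 times before Tead3, and 2 times each before Yap1 and Wwtr1, and in 32.9% of all promoters. The AP-1 letters TGANTCA and the core of the CTCF motif were in none of the 4 stretches on either strand, and in 6.87% and 2.06% of all promoters. The matches of GGAATG and GGGCGG shown do not overlap. The Tead2 peak, chr7:45216117-45216757, began downstream of the start and was in all 15 lists, and within 500 bases of the start Tead2 had a peak in 10 lists, those of day 0 and of the sorted cells.

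Of the 242 sites, 39 were in all 15 lists (16.1%, interval 11.7 to 21.4), against 7.77% of sites over the genome. They were 10 sites near Tead1, 6 near Tead2, 7 near Tead3, 8 near Tead4, 4 near Yap1 and 4 near Wwtr1. Some of them lay at ends of the 6 genes or of other genes, such as Rassf10, Pth2 and Fance. The 242 sites were chosen for lying near a gene, and the sites over the genome were not. This share over the genome and the others given here are thus not matched for distance to genes. A further view over the 5 control populations gave 63 sites open in every one (26.0%), against 15.0% over the genome. Near Tead2, Tead3 and Tead4 the sites open in all 5 control populations made up 42.9%, 45.5% and 40.0%, near Yap1 32.4%, near Tead1 17.0% and near Wwtr1 11.4%. The map of site presence shows the sites in all 15 lists as full columns. These made up a larger share of the sites near Tead2, Tead3 and Tead4 than of those near Tead1, Yap1 and Wwtr1.

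**Figure D1:**
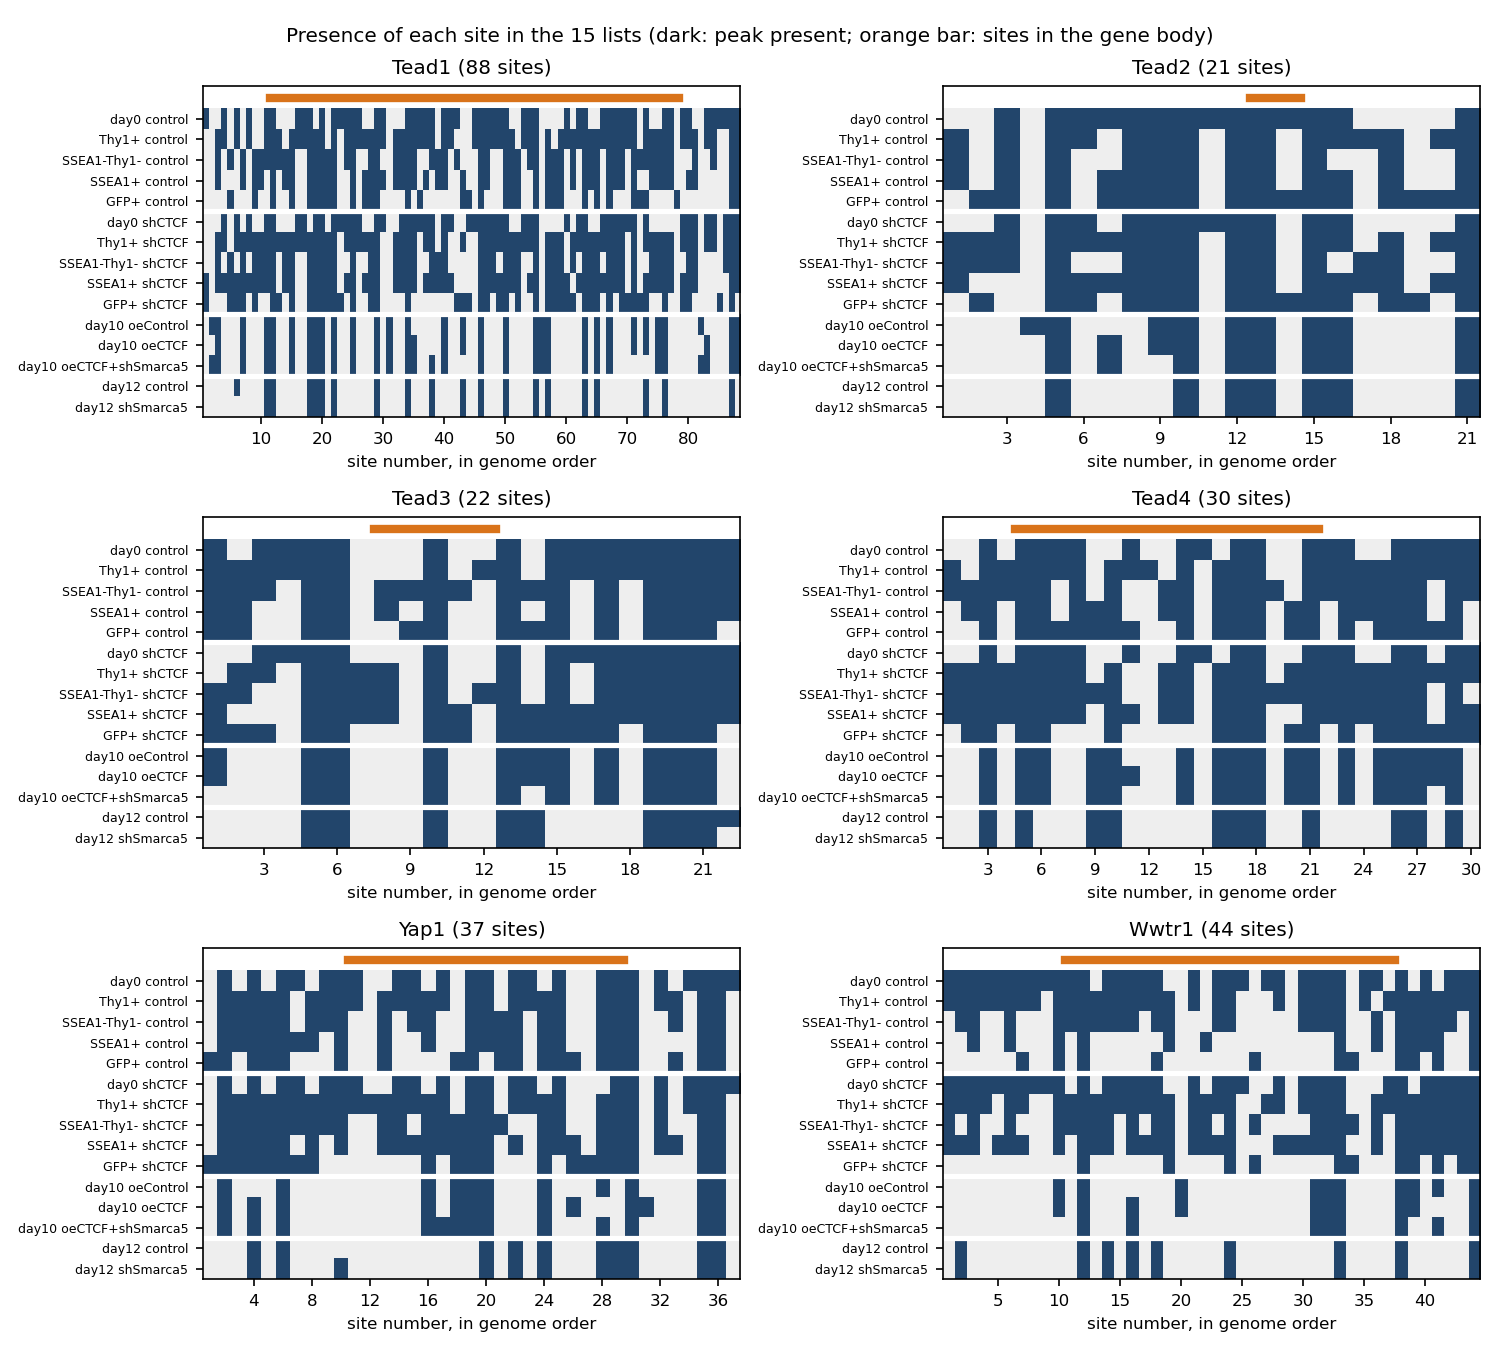
Presence of the sites near each gene, with sites in genome order on the horizontal axis and the 15 lists on the vertical axis (dark, a peak is present). The orange bar spans the sites in the gene body, and columns dark in all 15 lists number 10 for Tead1, 6 for Tead2, 7 for Tead3, 8 for Tead4, 4 for Yap1 and 4 for Wwtr1.

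Tead1, at chr7:112679356-112906784, is the longest of the genes and the TEAD factor known from heart muscle. Its control lists held 54 peaks at day 0, 66 for Thy1+, 55 for SSEA1-Thy1-, 50 for SSEA1+ and 34 for GFP+ cells. Of its 54 day 0 sites 37 were absent from GFP+ control cells (68.5%, interval 54.4 to 80.5), against 67.7% of all day 0 sites. Such sites are called closing, and sites of GFP+ control cells absent at day 0 are called opening. Of the 34 GFP+ sites of Tead1, 17 were opening (50.0%, interval 32.4 to 67.6), against 45.5% of all GFP+ sites. Tead1 thus had sites of both kinds in the shares seen over the genome, and 26 of its closing and 15 of its opening sites lay in the gene body.

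Tead2, Tead3 and Tead4 had few closing sites. Tead2, at chr7:45215792-45233468 and active in the preimplantation embryo, had 14, 15, 11, 13 and 16 peaks in the 5 control lists in the same order. Only 2 of its 14 day 0 sites were closing and 4 of its 16 GFP+ sites were opening. Its body held 2 of its 21 sites, and all of its closing and opening sites were among the 19 in its flank. Nearly all of these 19 lay inside a neighbouring gene (Slc17a7, Kash5, Dkkl1, Cd37, Slc6a16 or Slc6a21). Of the 21 sites, 6 were within 1 kb of an end of another gene, among them Pth2, Kash5, Dkkl1 and Slc6a16. The values of Tead2 are thus largely those of sites in its neighbours. Tead3, at chr17:28331671-28350805 and known from placenta, had 15, 17, 17, 13 and 13 peaks, with 5 of 15 sites closing and 3 of 13 opening. All 5 closing sites of Tead3 were in its flank, as were 14 of its 15 day 0 sites. Some sites of this flank lay in or at a neighbouring gene (Ppard, Fance, Rpl10a or Tulp1). The values of Tead3 are thus in part those of sites in its neighbours. Tead4, at chr6:128227143-128300813 and needed for the first trophectoderm cells of the embryo, had 18, 24, 23, 20 and 20 peaks. Of its 18 day 0 sites 3 were closing (16.7%, interval 3.58 to 41.4) and of its 20 GFP+ sites 5 were opening. The intervals of Tead2 and Tead4 lie below the genome's closing share of 67.7%, and that of Tead3 (11.8 to 61.6) does too.

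Both coactivator genes had closing sites, in shares whose intervals overlap and hold the genome's 67.7%. Yap1, at chr9:7931999-8004638, had 24 peaks at day 0, then 28, 24, 22 and 21 in the sorted control lists. A pair of its peaks shared 1 wide site, so that its day 0 sites numbered 23, with 11 of 23 sites closing (47.8%, interval 26.8 to 69.4) and 8 of 20 opening (40.0%). Wwtr1, at chr3:57455644-57575910, had 34 control peaks at day 0, and then 35 (Thy1+), 25 (SSEA1-Thy1-), 13 (SSEA1+) and 11 (GFP+). Its order was thus day 0 and Thy1+ cells highest, then SSEA1-Thy1- cells, with SSEA1+ and GFP+ cells lowest. Of its 34 day 0 sites 27 were closing (79.4%, interval 62.1 to 91.3), 16 of them in the gene body, and 4 of its 11 GFP+ sites were opening, beside 45.5% over the genome. Over all 6 genes 85 of 158 day 0 sites were closing (53.8%, interval 45.7 to 61.8) and 41 of 114 GFP+ sites opening (36.0%), against 67.7% and 45.5% over the genome.

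**Figure D2:**
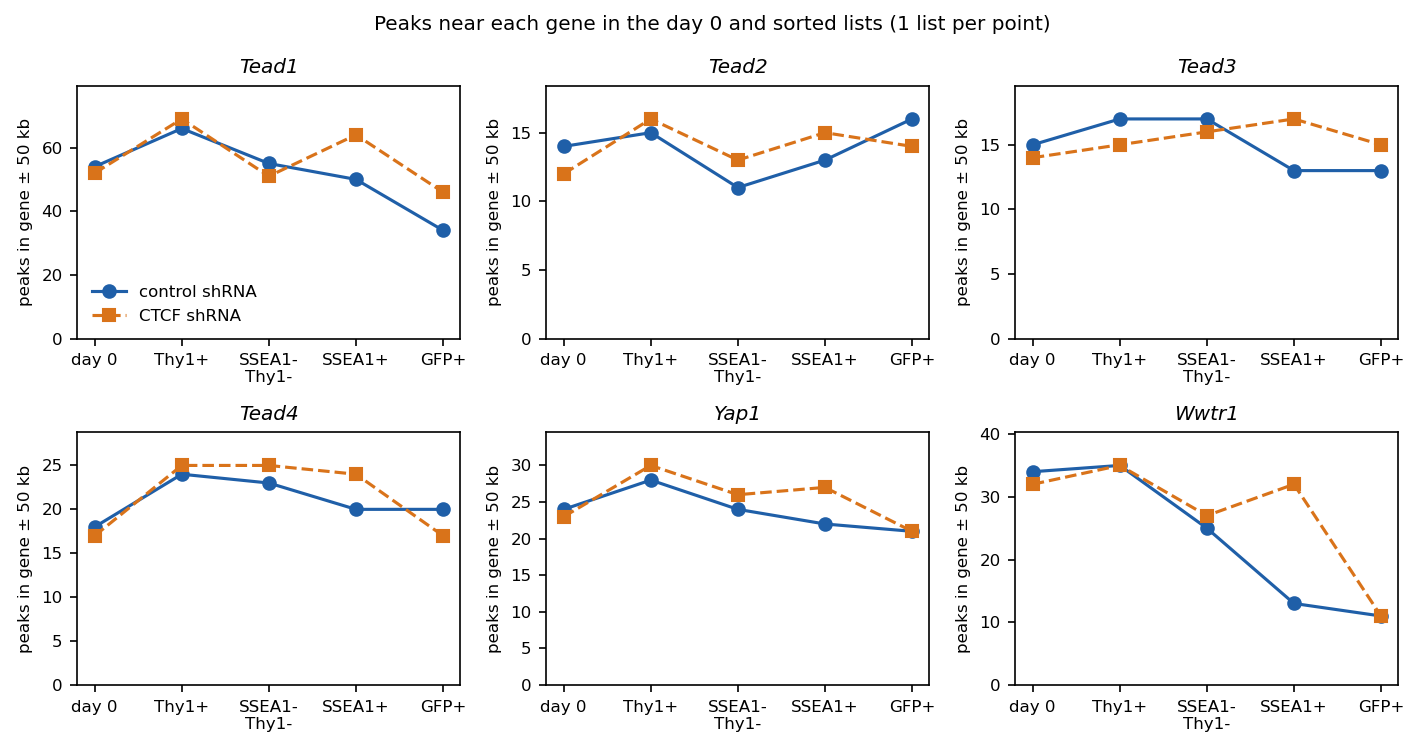
Number of peaks in each gene with 50 kb on either side (vertical axis, each panel from 0) in the day 0 and sorted lists (horizontal axis), 1 list per point, with control shRNA as circles and CTCF shRNA as squares. In SSEA1+ cells Wwtr1 stood at 13 peaks with control and 32 with CTCF shRNA, and the largest gap for Tead1 was 50 against 64 there.

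Near Wwtr1 many closing sites were still open in SSEA1-Thy1- cells. Of its 44 sites, 11 were open at day 0 and in Thy1+ and SSEA1-Thy1- control cells and absent from SSEA1+ and GFP+ cells (25%, against 5.87% over the genome), and 9 were open at day 0 and in Thy1+ cells alone (20.5%, against 18.6%). Step by step in the control lists, 4 of 34 sites were absent at the next population after day 0 (11.8%, against 14.7% over the genome). After Thy1+ these were 11 of 35 (31.4%, against 35.1%). After SSEA1-Thy1- they were 13 of 25 (52.0%, interval 31.3 to 72.2, against 19.2% over the genome), and after SSEA1+ 6 of 13 (46.2%, against 48.6%). SSEA1-Thy1- control cells still had 15 of the 27 closing sites of Wwtr1 (55.6%, interval 35.3 to 74.5), against 28.9% over the genome. In the same list Tead1 kept 13 of 37 closing sites (35.1%) and Yap1 3 of 11 (27.3%).

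The change in peak number near each gene was put on the relative log2 scale, the log2 ratio of peak numbers (plus 1 each) minus the log2 ratio of list lengths, and a gene with 5 or more peaks in either list was called up or down at 1.5-fold. From day 0 to GFP+ control cells the list length ratio was -0.75 on the log2 scale and the median of all genes 0.51. Tead2 (0.93) and Tead4 (0.90) were called up, as were 44.2% of all genes, and Wwtr1 (-0.79) was called down, as were 9.79%. Tead1 stood at 0.10, Tead3 at 0.56 and Yap1 at 0.57, none past the threshold. The calls up rest on the correction for list length: without it Tead2 and Tead4 were at 0.18 and 0.14, Wwtr1 at -1.54 and Tead1 at -0.65, both called down, Tead3 at -0.19 and Yap1 at -0.18, and 5.99% of all genes were called up and 31.7% down. Tead2 and Tead4 had nearly equal peak numbers in both lists, so their calls rest on the shorter GFP+ list.

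CTCF shRNA was compared with control shRNA in 5 pairs of lists, with lost sites in the control list alone and gained sites in the CTCF shRNA list alone, as shares of the sites in either. The largest difference was in SSEA1+ cells near Wwtr1. SSEA1+ control cells had 13 peaks there and SSEA1+ cells with CTCF shRNA had 32, close to the 34 and 32 of the day 0 lists and the 35 and 35 of the Thy1+ lists. Of 32 sites in either list, 0 were lost (which allows up to 10.9%) and 19 were gained (59.4%, interval 40.6 to 76.3), against 5.58% lost and 30.2% gained over the genome. Of the 19 gained sites 17 were open at day 0 in control cells and 18 in Thy1+ control cells, and 13 lay in the gene body. For all gained sites of this pair, 81.6% were open at day 0 in control cells and 89.0% in Thy1+ control cells.

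**Figure D3:**
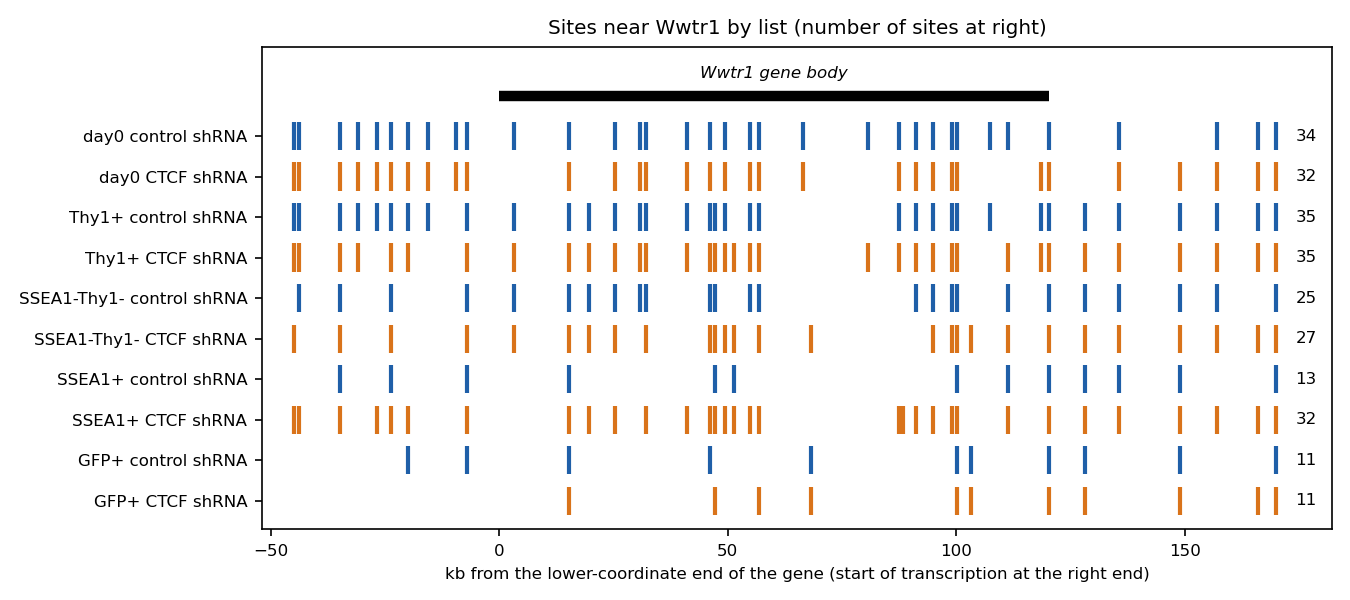
Sites near Wwtr1 in the 10 day 0 and sorted lists, by distance in kb from the lower-coordinate end of the gene (horizontal axis), with control shRNA in blue, CTCF shRNA in orange, the gene body as a black bar and the number of sites at the right. The SSEA1+ control list has 13 sites, and the SSEA1+ list with CTCF shRNA has 32, most of them at places also marked at day 0.

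Wwtr1 was the only one of the 6 genes called in this pair, at a relative log2 of 0.80, higher than 99.1% of 18180 genes. Over all genes 2.12% were called up and 3.06% down, with a median of -0.17 and a list length ratio of 0.44. Without the correction for list length, 17.0% were called up and 0.127% down, and Wwtr1 stood at 1.24. The other 5 genes lay between -0.24 (Tead2) and -0.07 (Tead3), near the median. In peak numbers, Tead1 had 50 with control and 64 with CTCF shRNA, Tead2 13 and 15, Tead3 13 and 17, Tead4 20 and 24, and Yap1 22 and 27. All 6 thus had more peaks with CTCF shRNA, and only for Wwtr1 did the ratio pass the threshold after the correction for list length.

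The closing sites come from the same lists, so that their counts in the SSEA1+ pair largely count the gained sites again. Of the 27 closing sites of Wwtr1, SSEA1+ control cells had 4 (14.8%, interval 4.19 to 33.7) and SSEA1+ cells with CTCF shRNA had 19 (70.4%, interval 49.8 to 86.2). Over all 6 genes the numbers were 17 and 54 of 85 (20% and 63.5%), and over the genome 15.1% and 55.6%. The Wwtr1 intervals hold both genome shares, so that by this count Wwtr1 did not stand apart. Tead1 had 10 and 24 of its 37 closing sites. In the GFP+ list with CTCF shRNA 2 of the 27 Wwtr1 sites were present, and 23 of the 32 SSEA1+ sites with CTCF shRNA were absent there (71.9%, against 54.9% over the genome). These values share the day 0 and GFP+ control lists, which define the classes.

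Other markers moved in the SSEA1+ pair too. From control to CTCF shRNA the fibroblast markers had 70 and 120 peaks in all: Thy1 10 and 19, Col1a1 19 and 25, Col1a2 9 and 20, Prrx1 13 and 28, Twist1 6 and 7, Snai2 3 and 3, Postn 3 and 7, and Fap 7 and 11. Thus 7 of the 8 had more peaks with CTCF shRNA, though for Twist1 and Col1a1 by less than the list length ratio of 0.44 on the log2 scale, and Snai2 had equal numbers. The 3 endothelial markers had 34 and 55, the 3 haematopoietic markers 39 and 52, the 5 trophoblast markers 66 and 77, the epithelial markers 117 and 127, and the pluripotency markers 102 and 111. None of these marker genes was without a peak in either list. The part of other cells in the gate, or of the longer list, in the Wwtr1 result was not tested.

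The other 4 pairs gave the following shares over the 6 genes. At day 0 15 of 164 sites were lost (9.15%, interval 5.21 to 14.6) and 6 gained (3.66%), against 4.23% and 4.64% over the genome. In Thy1+ cells 17 of 206 were lost (8.25%) and 22 gained (10.7%), against 6.96% and 15.2%. In SSEA1-Thy1- cells 19 of 176 were lost (10.8%) and 22 gained (12.5%), against 7.46% and 14.6%. In GFP+ cells 23 of 146 were lost (15.8%, interval 10.3 to 22.7) and 32 gained (21.9%), against 11.2% and 21.6%. Over SSEA1+ cells all 6 genes together had 9 of 187 sites lost (4.81%) and 57 gained (30.5%), so that the lost share was higher in each of the other 4 pairs and the gained share lower. The shares of lost and gained sites over the 6 genes were thus near those of the genome, with the day 0 lost share as the exception whose interval lies above it.

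None of the 6 genes was called in these 4 pairs. Over all genes 0.0339% were called up and 0.0903% down at day 0, 0.617% and 0.26% for Thy1+, 0.555% and 0.305% for SSEA1-Thy1-, and 2.12% and 2.09% for GFP+ cells. For Wwtr1 the peak numbers were 34 and 32 (day 0), 35 and 35 (Thy1+), 25 and 27 (SSEA1-Thy1-) and 11 and 11 (GFP+). Its excess with CTCF shRNA was thus seen in SSEA1+ cells and not in the next population, though the difference between populations was not tested. Tead1 in GFP+ cells had 34 and 46 peaks, a relative log2 of 0.25, with 17 of 51 sites gained (33.3%, interval 20.8 to 47.9) and 5 lost. That interval holds the genome's 21.6%, and the relative log2 of Tead1 lay within the central 95% of genes tested (-0.54 to 0.56). Of its 17 gained sites 13 were open at day 0 in control cells (76.5%, with no interval computed), against 48.6% of all gained sites of the GFP+ pair. Tead4 in GFP+ cells had 20 and 17 peaks, a relative log2 of -0.40, with 5 of its 22 sites lost, all in the gene body, and 2 gained. In a window of 20 kb its relative log2 was -0.68, and in the gene body -0.82, both past the threshold for a call down.

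**Figure D4:**
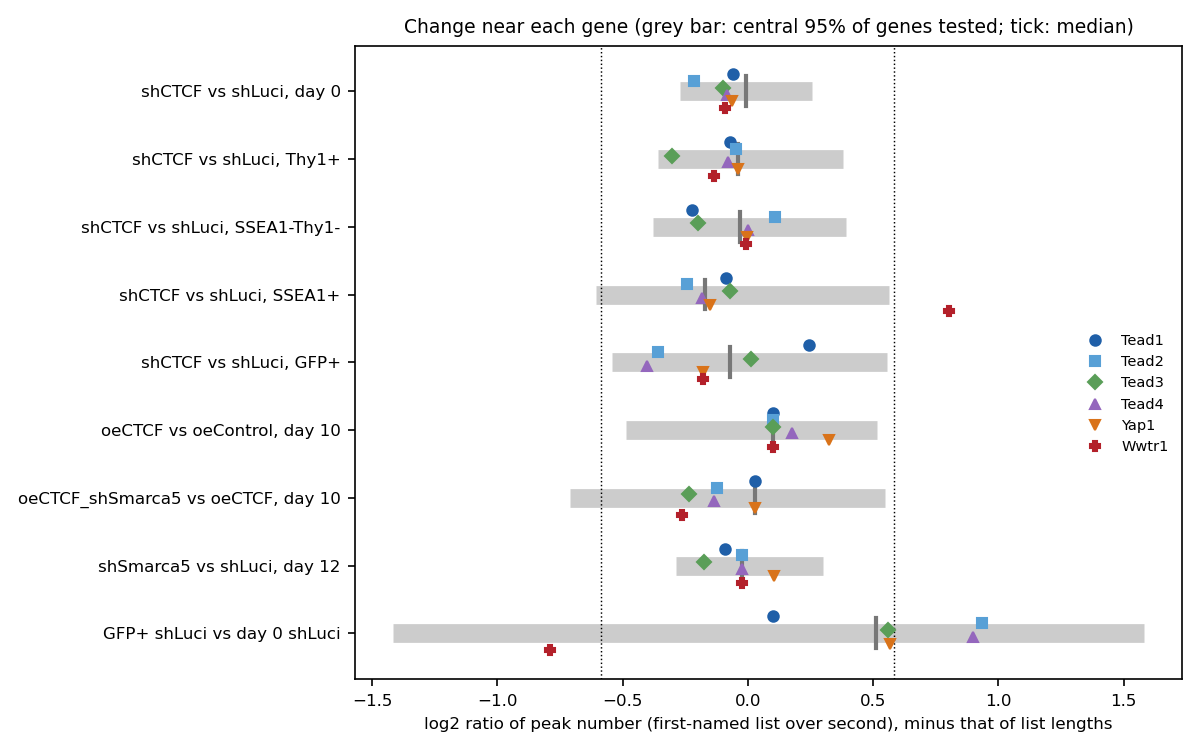
Relative log2 change in peak number near each of the 6 genes (horizontal axis) in 9 comparisons (vertical axis), with the central 95% of all genes tested as a grey bar, their median as a grey tick and the threshold for a call as dotted lines. Wwtr1 lies at 0.80 in the SSEA1+ pair and at -0.79 from day 0 to GFP+ control cells, beyond the dotted lines in both.

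Few sites differed the same way in 3 or more pairs. Of 235 sites in the 10 lists, 97 were alike in all 5 pairs (41.3%, interval 34.9 to 47.9), against 44.5% over the genome, from 11 of 43 near Wwtr1 (25.6%) to 13 of 20 near Tead2 (65.0%). In 2 or more pairs 13 of the 235 sites were lost and 30 gained, beside 5653 and 28168 of 266864 over the genome. The lost share was above that of the genome, with no interval computed. In 3 or more pairs 1 site was lost and 3 were gained, against 0.205% and 1.21% of sites over the genome. The gained ones were chosen after their values were seen. A site just beyond the downstream end of Tead3 at chr17:28331160-28331559, also within 1 kb of an end of Rpl10a, was in the Thy1+, SSEA1-Thy1- and SSEA1+ lists with CTCF shRNA and in no control list. In the flank of Wwtr1, chr3:57621437-57621836 was in all 5 CTCF shRNA lists and in the day 0 and Thy1+ control lists. In the flank of Yap1, chr9:7922921-7923320 was gained in 3 pairs and lost in 1, and chr9:8020098-8020497 was lost in 3 and gained in 1. In all, 37 of the 235 sites were lost in 1 pair and gained in another, beside 25663 of 266864 over the genome. Sites found in CTCF shRNA lists alone numbered 4 (1.70%, against 3.05% over the genome), and those in control lists alone also 4 (1.70%, against 1.53%).

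With CTCF overexpressed at day 10 the 6 genes differed little from the control vector. Peak numbers in oeControl, oeCTCF and oeCTCF_shSmarca5 cells were 31, 31 and 31 for Tead1, 9, 9 and 8 for Tead2, 11, 11 and 9 for Tead3, 17, 18 and 16 for Tead4, 11, 13 and 13 for Yap1, and 10, 10 and 8 for Wwtr1. Of 97 sites in oeControl or oeCTCF 5 were lost (5.15%, interval 1.69 to 11.6) and 8 gained (8.25%), against 15.3% and 9.23% over the genome. The lost share over the 6 genes was thus below that of the genome. Adding Smarca5 shRNA to CTCF gave 13 of 98 sites lost (13.3%, interval 7.26 to 21.6) and 6 gained (6.12%, interval 2.28 to 12.9), against 15.7% and 14.1%. Both comparisons share the oeCTCF list. Of 99 sites in any day 10 list 74 were in all 3 (74.7%, interval 65.0 to 82.9), against 62.5% over the genome. Yap1 had 3 of 14 sites gained with CTCF (21.4%, interval 4.66 to 50.8). Wwtr1 had 3 of 11 lost when Smarca5 shRNA was added (27.3%, interval 6.02 to 61.0). These intervals hold the genome's 9.23% and 15.7%.

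Smarca5 shRNA alone at day 12 left the sites near the 6 genes nearly as they were. Control and Smarca5 shRNA lists had 20 and 19 peaks for Tead1, 7 and 7 for Tead2, 9 and 8 for Tead3, 11 and 11 for Tead4, 10 and 11 for Yap1, and 9 and 9 for Wwtr1. Of 67 sites 2 were lost (2.99%, interval 0.364 to 10.4), 1 each near Tead1 and Tead3, and 1 was gained (1.49%, interval 0.0378 to 8.04), near Yap1. Over the genome 5.04% were lost and 6.48% gained. None of the 6 genes was called in these 3 pairs. Over all genes 1.95% were called up and 1.38% down with CTCF, 2.39% and 3.89% with Smarca5 shRNA added to it, and 0.141% and 0.413% at day 12.

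The other genes of the pathway were described from 3 lists, by the same calls. From day 0 to GFP+ control cells 3 of 22 Hippo output genes were called up and 4 down, against 44.2% up and 9.79% down of all genes, with a median relative log2 of 0.05 beside 0.51 over all genes. Rbms3, an RNA-binding protein gene, had 126 peaks before and 20 after (-1.84), Ccdc80, which encodes a matrix protein, 15 and 3, Crim1, whose product binds BMPs, 38 and 12, and Asap1, an Arf GTPase activator, 61 and 21. Those called up had nearly equal peak numbers: Ptpn14, a phosphatase that binds YAP, 33 and 32, Dock5 28 and 26, and Nuak2, a kinase, 24 and 22. The textbook output genes Ccn1 (18 and 9), Ccn2 (16 and 9) and Ankrd1 (8 and 6) were not called.

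Among 19 core and upstream genes 9 were called up and 3 down, with a median of 0.32. The 9 called up are near the 44.2% of all genes, and 9.79% of all genes were called down. The 5 highest were Taok2 (11 and 14 peaks), Lats1 (7 and 8), Mob1a (7 and 8), Wwc1 (27 and 30) and Mob1b (13 and 14), of which Lats1 is the kinase of YAP and TAZ and Mob1a and Mob1b are its activators. Those called down were Amot (17 and 2) and Amotl1 (37 and 13), angiomotins that hold YAP at junctions, and the cadherin Fat4 (26 and 4). Of the Vgll cofactors, which bind TEAD factors in place of YAP, 3 of 4 had 5 or more peaks, 0 were called up, and Vgll3 (19 and 3) and Vgll2 (12 and 4) were called down. As for the members, calls up in this comparison rest on the correction for list length.

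In the SSEA1+ pair no output gene was called, although their median was 0.18 beside -0.17 over all genes, and Rbms3 had 53 peaks with control and 103 with CTCF shRNA. Amot was called up, with 5 and 12 peaks, as were 2.12% of all genes. Mob1a (14 and 11) and Mob1b (18 and 16) were called down, as were 3.06%. Both calls down rest on the correction for list length, without which 0.127% of all genes were called down. Elsewhere calls were few, beside 2.12% up and 2.09% down of all genes in GFP+ cells, 1.95% and 1.38% with CTCF at day 10, and 2.39% and 3.89% with Smarca5 shRNA added. They were Stk3 (11 and 8) down with CTCF shRNA in GFP+ cells, Ankrd1 (3 and 5) up with CTCF at day 10, and, with Smarca5 shRNA added, Crim1 (9 and 14) up and Foxf2 (6 and 2) and Nf2 (17 and 10) down. The call of Stk3 rests on the correction for list length too. At day 0, in Thy1+ and SSEA1-Thy1- cells and at day 12 none of the listed genes was called.

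As a last description, the genes whose peak numbers were most alike over the 10 day 0 and sorted lists were found by Pearson's r on log2(peak number + 1) minus log2(list length). All genes share the lists and the length term, so that high values of r are common. For Wwtr1 these were Ccl1 (r = 0.991), Mcfd2 (0.982) and Il4ra (0.970), out of 16624 genes with 10 or more peaks in a list and at least 200 kb away. Il4ra had 11 peaks at day 0, 2 in SSEA1+ control cells, 12 in SSEA1+ cells with CTCF shRNA and 2 in GFP+ control cells, an outline like that of Wwtr1. For Tead1 they were Sgf29 (0.965), Col1a1 (0.95) and Wnt11 (0.946), for Tead2 Abhd11, Slc22a18 and Cnst (0.989 to 0.991), for Tead3 Pld4 (0.984) and Gsdmd (0.983), for Tead4 Flywch2, Taf2 and Armc12 (0.983 each), and for Yap1 Stx4a, Tex261 and Pkd2l1 (0.993 to 0.995). Col1a1 is also among the fibroblast markers.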

How the data were processed

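Open chromatin was measured by ATAC-seq in 32 samples. The authors' tools, per the submitters' processing notes, included MACS2, Bowtie2, Picard, SAMtools, FastQC, cutadapt and Trim Galore, and the notes name mm10 and GRCm38. How reads were shifted and samples pooled, with which versions and peak threshold, is not given in the sources used here. Each deposited interval spans 400 bp and has a score of 0, so the score was not used and peaks could not be ranked.

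Overlapping intervals of a list were merged, and peaks of all 15 lists that overlapped by 1 bp or more formed a site. Gene positions came from the RefSeq table of GRCm38.p6, with 21883 protein-coding genes. It gives no exons, so sites were placed in a gene body or flank only. The transcription start came from the promoter table, and Tead1 and Tead4 had no entry there. No test was run, as each group has 1 list. A gene was called at a fold of 1.5 relative to list length, with a minimum of 5 peaks in either list. The text names all 6 genes, of the pathway lists at most 5 called genes per direction and comparison, and 3 alike genes per member, of which 1 for Tead3 is not reported here. Other genes named are readouts or markers, chosen after their values were seen. Members and lists were chosen with earlier results of these data known. The lists of marker genes were fibroblast, pluripotency, epithelial, trophoblast, haematopoietic and endothelial. Alternatives were other windows, overlaps, thresholds and no correction for list length. The code was tested on simulated data. Python 3.11.15, numpy 2.4.6, pandas 2.3.3, scipy 1.17.1 and matplotlib 3.10.9 were used.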

Additional observations from a re-analysis of the deposited data

Results flagged for a closer look

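From control to CTCF shRNA, Tead1 had 54 and 52 peaks (day 0), 66 and 69 (Thy1+), 55 and 51 (SSEA1-Thy1-), 50 and 64 (SSEA1+), then 34 and 46 (GFP+). Tead4 had 18 and 17, 24 and 25, 23 and 25, 20 and 24, and 20 and 17 in the same order. Both thus had more peaks with CTCF shRNA in 3 populations and fewer in 2. These numbers are not corrected for list length, whose log2 ratios were 0.006, 0.134, 0.116, 0.436 and 0.18 in the same order. On the relative log2 scale Tead1 stood at -0.06, -0.07, -0.22, -0.09 and 0.25, and Tead4 at -0.08, -0.08, -0.0, -0.18 and -0.40. Only Tead1 in GFP+ cells had a positive value on this scale, and none of these values was a call. Near Tead1 the CTCF shRNA list of SSEA1+ cells had 14 more peaks than its control, and that of SSEA1-Thy1- cells differed by -4. Near Tead4 the difference was 4 in SSEA1+ cells and -3 in GFP+ cells. Each value rests on 1 list per group, and the difference between populations was not tested.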

How the results depend on the processing

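No paired analysis was possible because each group has 1 list and its replicates have no lists of their own. For the same reason no replicate could be left out, and a stricter peak threshold could not be tried because the score is 0. Of the recomputed summary values 226 kept their call or stayed within the interval (counts, within 1.5 times), and 29 did not. Some of the 226 still moved by over 1.5 times: the oeCTCF lost share, 5.15%, was 2.70% within 20 kb and 1.96% in the gene body, and the day 12 lost share, 2.99%, was 5.00% within 100 kb. Without the correction for list length Tead1, Tead3 and Yap1 went from 0.10, 0.56 and 0.57 to -0.65, -0.19 and -0.18 (log2, day 0 to GFP+), and all genes from 44.2% up and 9.79% down to mostly down, as given next to that setting. Other uncalled log2 values near 0 also turned sign under some settings. With the gene body alone the 6 genes had 84 peaks at day 0, 72 in SSEA1+, 97 in SSEA1+ with CTCF shRNA and 62 in GFP+ control cells, as fewer sites enter. In the day 12 pair lost sites were 0.0% within 20 kb and in the gene body, and gained sites 0.0% in the gene body. In the SSEA1+ pair Wwtr1 was not called at 2-fold, which left 0 of the 6 genes called. All genes called up there were 4.82% in the gene body, 17.0% without correction for list length and 0.506% at 2-fold, and down 7.48% within 20 kb, 1.60% within 100 kb, 5.60% in the gene body, and 0.127% both without correction and at 2-fold. In the GFP+ pair 1 gene, Tead4, was called down within 20 kb and in the gene body, where the share of all genes called was not computed. From day 0 to GFP+ control cells the genes called up were 4 within 20 kb and 0 both without correction and at 2-fold, and those called down 2 without correction and 0 at 2-fold. All genes called up were then 28.9% in the gene body, 5.99% without correction and 16% at 2-fold, and down 24.0%, 31.7% and 5.03%. The cause of these shifts was not tested beyond the construction of each alternative. Only sites nearest to the gene, and sites alike without the SSEA1+ pair, were added after seeing the data, and their summary values stayed near those given. Depth limits all of this: the reads behind each list are unknown, lists pool 2 or 3 samples, and an absent peak does not show closed chromatin.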
